A study of Saccharomyces cerevisiae with 4 samples.

Results

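The genes described here are the translation factors of budding yeast: the proteins that start, extend and end the making of a polypeptide on the cytosolic ribosome, with the Gcn proteins that regulate the first of these steps. They were chosen by symbol, as a fixed list of 45 genes among the 7126 features of the deposited table; the rule uses no expression value, although the list was drawn up with earlier results of these data known. In manganese-adapted yeast 28 of the 44 factors that could be tested fell (63.6%, beside 34.9% of all features tested). Another 4 rose (9.09%, beside 33.6%), and of these only HEF3 kept its call under every alternative setting run. Of the falls, 18 were called under every alternative setting run, and these included the cap-binding protein CDC33, the scanning factor TIF11 and the elongation factor subunits EFB1 and TEF4, each at less than 50% of its mean control level. The clearest opposite change was in HEF3, the second yeast gene for elongation factor 3, whose transcript was 2.52-fold more abundant in CPM.

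RNA was measured by RNA sequencing in 4 samples of one Saccharomyces cerevisiae strain, CRY, of mating type MATa, whose genotype label lists delta alleles of ade2, ura3, trp1, leu2 and his3. The 2 manganese-adapted samples were grown in rich glucose medium (YPD) with 2.5 mM manganese sulphate for 120 h, and the 2 control samples in YPD with an estimated 0.0036 mM manganese for 18 h. Both were harvested at stationary stage, so the manganese dose and the length of culture changed together and cannot be told apart. The labels do not say whether the samples of a group came from separate cultures, so the p-values measure only how these particular samples vary, and that variation may be technical.

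Values are CPM, read counts scaled to a common library size, and 1 read was worth 0.0708 to 0.0789 CPM. The libraries held 13739798 and 12307870 reads in manganese-adapted cells and 14184276 and 13466475 reads in control cells, so that 3 reads, the limit for a gene with none, corresponded to 0.212 to 0.237 CPM. Samples of a group were close to each other, with a correlation of log2 values across genes of 0.9965 in manganese-adapted cells and 0.9939 in control cells. Summed over the a-cell markers, the samples held 321 to 325 CPM in manganese-adapted cells and 305 to 335 CPM in control cells; of the 7, BAR1 and STE6 rose, STE2, MFA1 and MFA2 fell and 2 did not pass. The alpha-cell markers are ones that a MATa strain should largely lack. Summed, they held 138 to 149 CPM in manganese-adapted cells and 66.7 to 69.5 CPM in control cells. Most of this was SAG1, with 98.2 and 103 CPM in manganese-adapted cells and 53.7 and 52.5 CPM in control cells. Of the 4, 3 rose (75%, beside 33.6% of all features) and MF(ALPHA)2 fell (25%, beside 34.9%). All 5 marker genes that the label lists as delta were read in every sample, at 37.0 to 830 CPM, so the deletions are not visible in these counts. The part of these marker levels in the changes below was not tested.

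Translation of most mRNAs begins when eIF4E binds the cap of the message, as part of the complex eIF4F, and a small ribosomal subunit carrying eIF1, eIF1A, eIF3, eIF5 and the eIF2-GTP-initiator tRNA complex scans to the start codon. eIF2B then recharges eIF2 with GTP; phosphorylation of eIF2 by the kinase Gcn2 slows that step and lets the transcription factor Gcn4 be made. During elongation eEF1A delivers tRNAs, eEF1B recharges eEF1A, eEF2 moves the ribosome along, and fungi also need the ATPase eEF3. eRF1 and eRF3 release the finished chain. In rapidly growing yeast many of these genes are highly expressed.

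Several factors are encoded by a pair of gene copies, and how far the reads can be assigned to a copy depends on their sequences. The following stretches of coding sequence, in the order 5′ to 3′ and with the base that differs between copies in capitals, are shown because each holds one of the few positions where TIF2 differs from TIF1 (eIF4A, the RNA helicase of eIF4F), TEF2 from TEF1 (eEF1A) and EFT2 from EFT1 (eEF2). They are from the R64 reference assembly of RefSeq, and lie at chrX:154612-154652 (minus strand), chrXI:555026-555066, chrII:478412-478452, chrXVI:701335-701375, chrIV:1243656-1243696 and chrXV:575524-575564 (all plus strand).
TIF2: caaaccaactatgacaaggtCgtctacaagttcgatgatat
TIF1: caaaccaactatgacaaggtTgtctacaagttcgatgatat
TEF2: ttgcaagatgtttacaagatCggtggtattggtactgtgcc
TEF1: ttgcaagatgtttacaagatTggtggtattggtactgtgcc
EFT2: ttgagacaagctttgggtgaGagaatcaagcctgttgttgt
EFT1: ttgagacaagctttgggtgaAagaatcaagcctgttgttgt
Over the whole coding sequence the copies differed at 6 bases for TIF2 and TIF1, at 2 bases for TEF2 and TEF1 and at 4 bases for EFT2 and EFT1. Of all 50-base windows in these genes, those that occur once in the genome made up 15.1% in TIF1 and TIF2, 7.53% in TEF1 and TEF2, and 8.06% in EFT1 and EFT2, whereas in each of the other 39 genes every such window was unique. The values of these 6 genes are therefore uncertain as values of a copy, and the sources used here do not give the rule for reads that match both copies.

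The other pairs can be told apart by their reads. HYP2 and ANB1 both encode eIF5A, which helps the ribosome through difficult stretches and carries the modified amino acid hypusine; HYP2 is the copy used in air and ANB1 the copy used without oxygen. Their coding sequences were 90.9% identical, with 43 differing bases. The first 180 bases, at chrV:85676-85855 (plus strand) and chrX:525202-525381 (minus strand) of R64, are shown because these copies gave the lowest values of all 45 genes, and the 10 bases that differ are in capitals.
HYP2: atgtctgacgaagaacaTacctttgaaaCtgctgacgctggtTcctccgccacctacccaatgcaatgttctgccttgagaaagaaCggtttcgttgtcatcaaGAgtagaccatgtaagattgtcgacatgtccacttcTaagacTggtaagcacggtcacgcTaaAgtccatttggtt
ANB1: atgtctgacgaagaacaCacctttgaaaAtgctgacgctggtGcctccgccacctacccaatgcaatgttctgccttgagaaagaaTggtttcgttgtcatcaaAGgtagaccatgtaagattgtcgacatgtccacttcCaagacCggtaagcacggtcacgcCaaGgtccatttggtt
HEF3 and YEF3, the copies of eEF3, were 74.6% identical, and their longest shared run was 41 bases. The 120 bases from position 2421 of the coding sequence, at chrXIV:608739-608858 and chrXII:639200-639319 (both plus strand), are shown because these copies changed in opposite directions and this stretch holds that run, with the differing bases in capitals.
HEF3: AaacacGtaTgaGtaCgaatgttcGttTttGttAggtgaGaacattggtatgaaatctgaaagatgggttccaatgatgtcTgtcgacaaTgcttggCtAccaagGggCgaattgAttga
YEF3: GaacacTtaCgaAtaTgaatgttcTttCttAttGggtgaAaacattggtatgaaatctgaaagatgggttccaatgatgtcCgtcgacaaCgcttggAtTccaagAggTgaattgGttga
CAM1 and TEF4, the gamma subunits of eEF1B, were 68.6% identical, and TIF4632 and TIF4631, the scaffold eIF4G, 58.4%.

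Changes were tested with limma on log2(CPM + 1), with p-values adjusted by the method of Benjamini and Hochberg over the 6296 features that reached 1 CPM in at least 2 samples, at a threshold of 0.05. Of the 45 factors, 44 passed that filter; HYP2, with 0 reads in all 4 samples, did not. Between the groups 32 of the 44 changed, a share near the 68.5% of all features tested that did. The 28 that fell were 63.6% of the 44, beside 34.9% of all features that fell, and the 4 that rose, HEF3, ANB1, TIF4632 and EAP1, stood beside 33.6% of all features that rose. Both manganese-adapted samples lay below both control samples for 34 factors, where 43.3% of all features did, and above both for 4, where 42.4% did. The median log2 fold change was −0.32 over the 44 factors and −0.01 over all features; a fold change on this scale understates the change of a gene with few reads. Changes of at least 1.5-fold that passed the test were found for 14 of the 44 factors. This was a smaller share than the 37.8% of all features with such changes in either direction. Of the 14, 13 were lower, and the shares of all features by direction at this size were not counted. Without the 6 near-identical genes, 24 factors fell and 4 rose. In bulk RNA, fewer cells making a transcript and less of it per cell cannot be told apart.

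**Figure D1:**
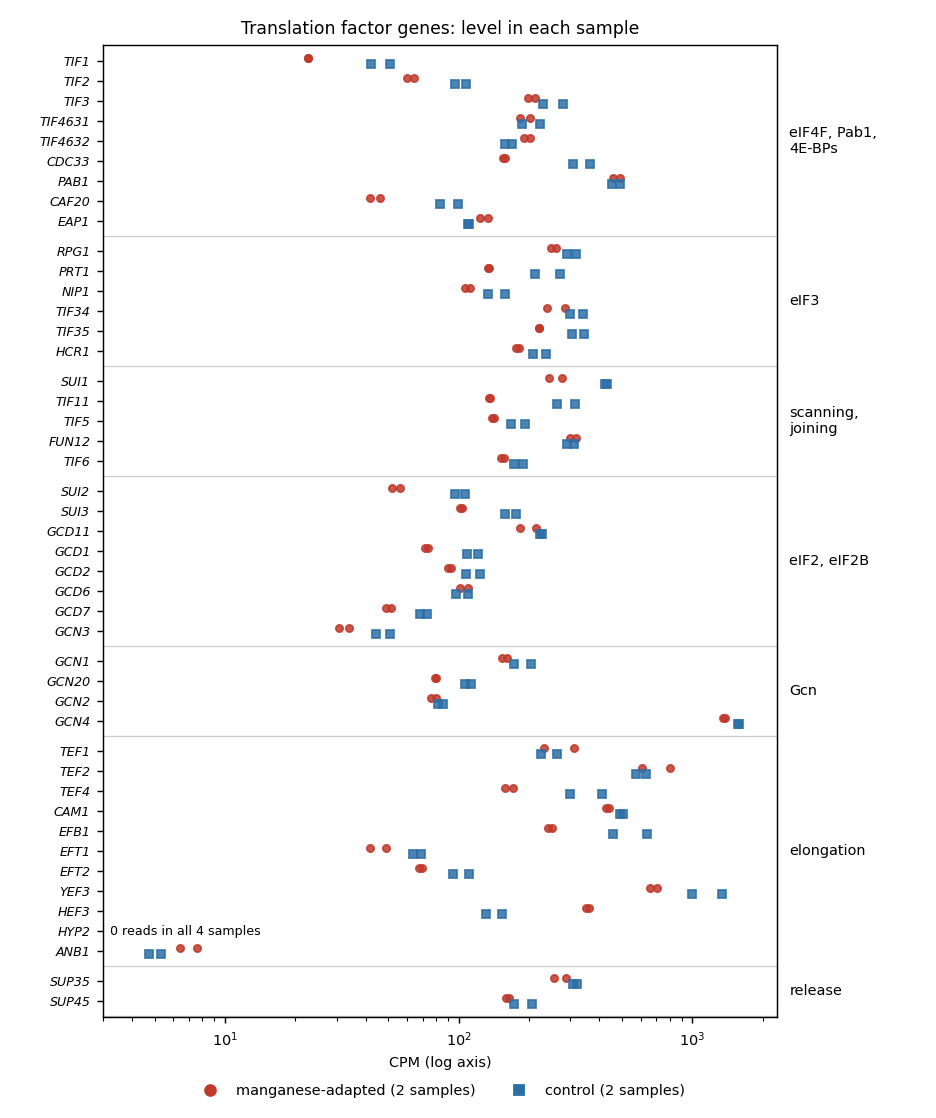
Level of each of the 45 translation factor genes in CPM (log axis) in the 2 manganese-adapted samples (red circles) and the 2 control samples (blue squares), grouped by role. CDC33, TIF11, EFB1 and TEF4 show both red circles well to the left of both blue squares, HEF3 shows the opposite, and HYP2 has no reads.

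Across all genes the change depended on length: shorter coding sequences had lower fold changes (Pearson's r = 0.34, Spearman's rho = 0.40 across 5769 genes), and so did shorter factors (r = 0.40, rho = 0.42 across 44 genes, which share the 4 libraries). When each sample's trend with coding length was removed, 32 factors fell, where 34.0% of all features with a length fell, and 2 rose, HEF3 and ANB1, where 32.9% rose. The median over the factors was then −0.44. The value with the length trend removed is given below wherever it changes a call.

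Of 28 initiation factors 21 fell (75%, beside 34.9% of all features), 2 rose (7.14%, beside 33.6%) and 5 did not pass. Their median log2 change was −0.38. The cap-binding group was divided. CDC33, which encodes the cap-binding protein eIF4E (chromosome XV, 60383 to 61024, minus strand, 1 exon), had 157 and 155 CPM in manganese-adapted cells, against 309 and 364 CPM in control cells. The groups were well separated, and the difference was −1.10 ± 0.10 on the log2 scale (SE; limma, adjusted p = 3.69e-06). CAF20, which encodes a protein that binds eIF4E in place of eIF4G and so holds translation back, had 41.7 and 46.2 CPM in manganese-adapted cells, against 82.8 and 99.2 CPM in control cells (log2 fold change −1.03 ± 0.11, SE). The other inhibitor of this kind, EAP1, went the other way, with 134 and 123 CPM in manganese-adapted cells, against 110 and 111 CPM in control cells (0.22 ± 0.08; limma, adjusted p = 0.0401). Of the proteins that compete with eIF4G for eIF4E, CAF20 was thus lower and EAP1 higher in transcript level. The rise of EAP1 did not pass without control replicate 1, manganese-adapted replicate 1 or manganese-adapted replicate 2 (log2 fold changes 0.16 to 0.28 over the 4 fits that each leave out a sample; highest adjusted p = 0.236), and it was −0.03 with the length trend removed.

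Both genes for the helicase eIF4A fell. TIF1 had 22.6 and 22.7 CPM in manganese-adapted cells, against 42.0 and 50.9 CPM in control cells (−0.998 ± 0.12, SE). TIF2 had 64.1 and 60.1 CPM in manganese-adapted cells, against 96.8 and 107 CPM in control cells (−0.71 ± 0.09, SE), so both copies were lower in both manganese-adapted samples. TIF2 held 74.0% and 72.5% of the pair's CPM in manganese-adapted cells and 69.7% and 67.9% in control cells. TIF3, which encodes eIF4B, a stimulator of eIF4A, had 211 and 198 CPM in manganese-adapted cells, against 230 and 278 CPM in control cells (−0.30; adjusted p = 0.022). Its call was lost without control replicate 2, manganese-adapted replicate 1 or manganese-adapted replicate 2 (highest adjusted p = 0.183, limma).

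In the values as deposited, TIF4631 and PAB1 were nearly level, while the second scaffold gene, TIF4632, was slightly higher. TIF4631, the main gene for eIF4G, had 201 and 184 CPM in manganese-adapted cells and 186 and 222 CPM in control cells, which overlap (−0.08 ± 0.10, SE). TIF4632, its paralog, had 191 and 201 CPM in manganese-adapted cells and 158 and 170 CPM in control cells (0.26 ± 0.08; limma, adjusted p = 0.0186). This rise did not pass without control replicate 1, manganese-adapted replicate 1 or manganese-adapted replicate 2 (0.21 to 0.31; highest adjusted p = 0.132), and it was −0.04 with the length trend removed, while TIF4631 was then −0.39 (adjusted p = 0.00516). The 2 manganese-adapted samples had 48.7% and 52.2% of the pair's CPM in TIF4632, against 45.8% and 43.4% in control cells. PAB1, whose protein binds the poly(A) tail and eIF4G, had 489 and 457 CPM in manganese-adapted cells and 453 and 488 CPM in control cells, with full overlap.

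All 6 genes for eIF3, the large complex that holds the initiating subunit together, fell, beside 34.9% of all features. Their median log2 change was −0.36. PRT1 had 134 and 135 CPM in manganese-adapted cells, against 213 and 271 CPM in control cells (−0.84 ± 0.11, SE; limma, adjusted p = 6.61e-05). TIF35, whose protein binds RNA, had 220 CPM in both manganese-adapted samples, against 306 and 344 CPM in control cells (−0.56 ± 0.09, SE). The other 4, RPG1, NIP1, TIF34 and HCR1, fell by 0.25 to 0.40 on the log2 scale, and each of these calls was lost when a sample was left out. NIP1 lost its call without manganese-adapted replicate 1 (highest adjusted p = 0.0681) and HCR1 without either manganese-adapted sample (0.0961). RPG1 lost it without control replicate 2 or either manganese-adapted sample (0.156), and TIF34 without control replicate 2 or manganese-adapted replicate 2 (0.308, all limma). With the length trend removed, HCR1 (−0.12, adjusted p = 0.237) and TIF34 (−0.24, adjusted p = 0.0501) no longer passed. Per kilobase of coding sequence, the level of these subunits ranged in manganese-adapted cells from 44.8 CPM for NIP1 to 267 CPM for TIF35, and in control cells from 59.5 CPM for NIP1 to 394 CPM for TIF35.

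Of the 5 factors for scanning, start codon choice and subunit joining, 4 fell (80%, beside 34.9% of all features). The median log2 change of the 5 was −0.35. TIF11, which encodes eIF1A (chromosome XIII, 789378 to 789839, minus strand, 1 exon), had 135 and 136 CPM in manganese-adapted cells, against 264 and 316 CPM in control cells (−1.09 ± 0.10, SE; limma, adjusted p = 4.55e-06). SUI1, which encodes eIF1, the guardian of start codon choice, had 243 and 278 CPM in manganese-adapted cells, against 422 and 432 CPM in control cells (−0.71 ± 0.09, SE). SUI1 is one of the shortest genes of the list, and with the length trend removed its difference was −0.12 (limma, adjusted p = 0.234), the only one of the 14 changes of at least 1.5-fold to lose its call there. TIF5, whose protein makes eIF2 hydrolyse its GTP, had 141 and 139 CPM in manganese-adapted cells, against 167 and 192 CPM in control cells. TIF6, whose protein keeps free large subunits from joining small ones, had 157 and 151 CPM in manganese-adapted cells, against 172 and 188 CPM in control cells. The call of TIF5 was lost without either manganese-adapted sample (highest adjusted p = 0.0705), and that of TIF6 without control replicate 2 or either manganese-adapted sample (0.191, limma); with the length trend removed TIF6 was at 0.02. FUN12, which encodes the subunit-joining factor eIF5B, had 318 and 300 CPM in manganese-adapted cells and 292 and 312 CPM in control cells; these overlapped, and FUN12 passed as lower with the length trend removed (−0.28, adjusted p = 0.0143).

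**Figure D2:**
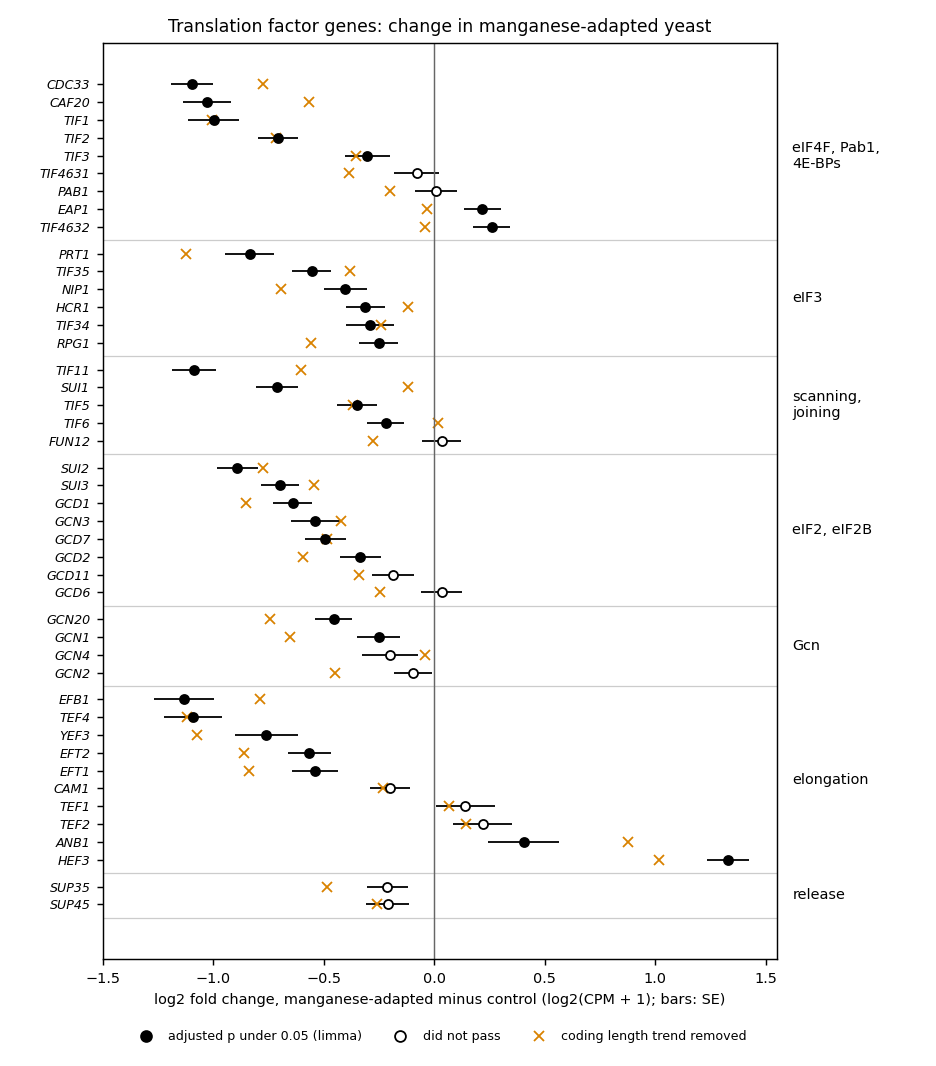
Log2 fold change of the 44 tested translation factor genes, manganese-adapted minus control, in log2(CPM + 1), with bars for the SE; filled circles passed the test, open circles did not, and crosses give the value with the coding length trend removed. CDC33, TIF11, EFB1 and TEF4 lie near −1.1, HEF3 at 1.33, and the crosses of TIF4632, EAP1, TIF6 and SUI1 lie between −0.12 and 0.02.

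The subunits of eIF2 and eIF2B did not fall to the same extent. SUI2, the alpha subunit of eIF2 and the target of Gcn2, had 52.0 and 56.3 CPM in manganese-adapted cells, against 96.7 and 106 CPM in control cells (−0.89 ± 0.09, SE; limma, adjusted p = 1.18e-05). SUI3, the beta subunit, had 101 and 104 CPM in manganese-adapted cells, against 158 and 175 CPM in control cells (−0.70 ± 0.09, SE). GCD11, the gamma subunit, which binds GTP and the initiator tRNA, had 214 and 182 CPM in manganese-adapted cells and 223 and 227 CPM in control cells (−0.19 ± 0.10; adjusted p = 0.105) and did not pass. Per kilobase, the mean levels of SUI2, SUI3 and GCD11 were 59.2, 119 and 125 CPM in manganese-adapted cells, and 111, 194 and 142 CPM in control cells. The differences between these subunits' changes were not tested.

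In eIF2B, GCD1, the gamma subunit, had 71.7 and 74.1 CPM in manganese-adapted cells, against 108 and 121 CPM in control cells (−0.64 ± 0.09, SE; limma, adjusted p = 9.76e-05). GCD7, the beta subunit, had 48.7 and 51.2 CPM in manganese-adapted cells, against 68.1 and 73.4 CPM in control cells, and GCN3, the alpha subunit, had 33.9 and 30.8 CPM in manganese-adapted cells, against 44.1 and 50.9 CPM in control cells. Both passed, at −0.49 and −0.54. GCD2, the delta subunit, had 90.2 and 92.4 CPM in manganese-adapted cells, against 108 and 124 CPM in control cells, and its call was lost without either manganese-adapted sample (highest adjusted p = 0.0835, limma). GCD6, the catalytic epsilon subunit, had 102 and 109 CPM in manganese-adapted cells and 97.3 and 109 CPM in control cells, which overlap (0.03 ± 0.09, SE). With the length trend removed all 8 genes of eIF2 and eIF2B fell, GCD6 at −0.25 (limma, adjusted p = 0.0331) and GCD11 at −0.34 (0.0057). As deposited, 6 of the 8 fell (75%, beside 34.9% of all features), with a median of −0.52.

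Among the Gcn proteins, GCN20, a partner of Gcn1 in switching on Gcn2, had 79.4 and 79.6 CPM in manganese-adapted cells, against 106 and 113 CPM in control cells (−0.45 ± 0.08, SE; limma, adjusted p = 0.00068). GCN1 had 154 and 161 CPM in manganese-adapted cells, against 172 and 205 CPM in control cells (−0.25; adjusted p = 0.0397), a call that was lost without control replicate 2 or either manganese-adapted sample (highest adjusted p = 0.269). The kinase gene GCN2 had 76.3 and 79.7 CPM in manganese-adapted cells and 81.1 and 85.9 CPM in control cells, a difference that did not pass (adjusted p = 0.338). It passed as lower with the length trend removed (−0.45, adjusted p = 0.00079).

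GCN4, the transcription factor at the end of this pathway (chromosome V, 138918 to 139763, minus strand), had the highest level of the list, with 1378 and 1351 CPM in manganese-adapted cells and 1562 and 1577 CPM in control cells. The groups did not overlap, but the difference of −0.20 ± 0.13 did not pass (limma, adjusted p = 0.179). Per kilobase GCN4 also led in both groups, at 1613 CPM in manganese-adapted cells and 1855 CPM in control cells. These ranks hold only for the values as deposited. The levels of HYP2 and of the near-identical copies, among them the eEF1A and eEF2 genes, are uncertain and may be too low. Gcn4 is controlled mainly through translation of its mRNA, which these data do not measure. Of 36 genes listed as Gcn4 targets, most of them for amino acid synthesis, 15 rose (41.7%, beside 33.6% of all features) and 12 fell (33.3%, beside 34.9%), with a median of 0.04, so their shares were near those of all features. The largest change was in SNZ1 (vitamin B6 synthesis), with 1339 and 1280 CPM in manganese-adapted cells, against 167 and 139 CPM in control cells. ARG4 (arginine synthesis) had 786 and 715 CPM in manganese-adapted cells, against 322 and 282 CPM in control cells, and GLN1 (glutamine synthetase) had 363 and 285 CPM in manganese-adapted cells, against 930 and 1000.4 CPM in control cells. With the length trend removed 11 rose and 13 fell.

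In elongation the exchange factor eEF1B and eEF3 changed most. EFB1, which encodes eEF1B alpha, the catalytic subunit (chromosome I, 142174 to 143160, plus strand, 2 exons), had 251 and 240 CPM in manganese-adapted cells, against 457 and 636 CPM in control cells (−1.13 ± 0.14, SE; limma, adjusted p = 3.26e-05). TEF4, an eEF1B gamma subunit (chromosome XI, 282891 to 284455, plus strand, 2 exons), had 171 and 158 CPM in manganese-adapted cells, against 300 and 411 CPM in control cells (−1.09 ± 0.13, SE). Its paralog CAM1 had 440 and 425 CPM in manganese-adapted cells and 491 and 505 CPM in control cells (−0.20 ± 0.09; adjusted p = 0.0708) and did not pass. It passed as lower with the length trend removed (−0.23; limma, adjusted p = 0.0335) and with the GC trend removed (−0.24; adjusted p = 0.0182). CAM1 therefore held 72.0% and 73.0% of the pair's CPM in manganese-adapted cells, against 62.1% and 55.1% in control cells, a mean difference of 13.9 percentage points. The introns of EFB1 and TEF4 hold the small nucleolar RNAs snR18 and snR38, which were counted separately and had at most 59 reads in a sample. The counting mode is not given, so their part in their hosts' values cannot be read from these counts.

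The pair for eEF3 moved in opposite directions. YEF3, the main gene (chromosome XII, 636780 to 639914, plus strand), had 703 and 658 CPM in manganese-adapted cells, against 994 and 1338 CPM in control cells (−0.76 ± 0.14, SE; limma, adjusted p = 0.000789). HEF3 (chromosome XIV, 606319 to 609453, plus strand) had 359 and 352 CPM in manganese-adapted cells, against 152 and 130 CPM in control cells (1.33 ± 0.09, SE; limma, adjusted p = 9.78e-07). In neither gene did the groups overlap, and both calls held under every alternative run. HEF3 supplied 33.8% and 34.9% of the pair's CPM in manganese-adapted cells, against 13.3% and 8.88% in control cells, a difference of 23.3 percentage points. Summed, the pair had 1062 and 1010 CPM in manganese-adapted cells, against 1146 and 1468 CPM in control cells, so its total was lower in both manganese-adapted samples. The coding sequences are equally long, so these CPM can be set side by side.

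**Figure D3:**
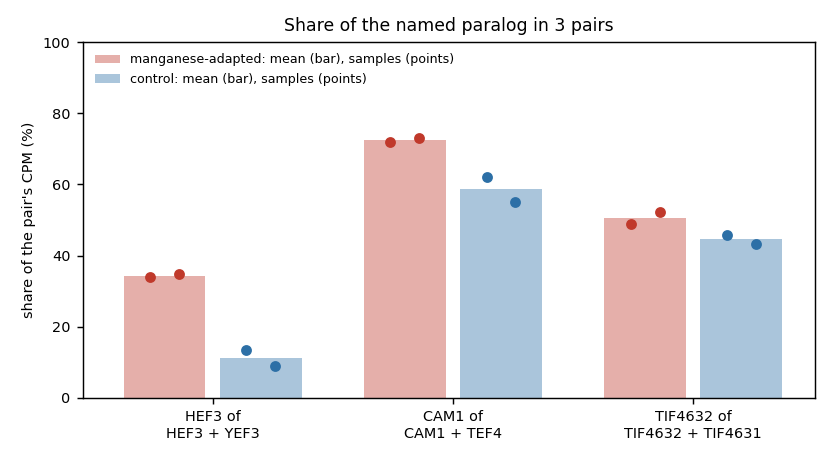
Share of a pair's CPM (%) held by HEF3 (of HEF3 and YEF3), CAM1 (of CAM1 and TEF4) and TIF4632 (of TIF4632 and TIF4631); bars are the means of 2 samples, manganese-adapted in red and control in blue, and points are the samples. HEF3 averaged 34.3% in manganese-adapted cells and 11.1% in control cells, and in all 3 pairs both red points lie above both blue points.

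An exact two-sided permutation test over 2 against 2 samples cannot give a p below 0.33, and it gave that p for the shares of HEF3, CAM1, TIF4632, TIF2 and TEF2, whose groups did not overlap. The share of EFT2 overlapped between the groups (p = 1, exact permutation test).

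HEF3 also carries the name ZRG7 in the R64 annotation, which describes it as normally expressed in zinc-deficient cells. For that reason, and after their values were seen, the zinc regulator ZAP1 and the zinc transporter ZRT1 are given beside it. ZAP1 had 124 and 131 CPM in manganese-adapted cells, against 35.0 and 33.6 CPM in control cells. ZRT1 had 381 and 377 CPM in manganese-adapted cells, against 53.9 and 49.2 CPM in control cells. Both were higher in both manganese-adapted samples than in either control, as were 42.4% of all features tested. No other zinc gene is given here, and the part of ZAP1 and ZRT1 in the level of HEF3 was not tested.

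The genes for eEF2 fell alike. EFT1 had 48.7 and 41.8 CPM in manganese-adapted cells, against 63.4 and 68.9 CPM in control cells (−0.54 ± 0.10, SE). EFT2 had 69.3 and 67.7 CPM in manganese-adapted cells, against 94.3 and 110 CPM in control cells (−0.57 ± 0.10, SE). EFT2 held 58.8% and 61.8% of the pair in manganese-adapted cells and 59.8% and 61.5% in control cells, though the copies can hardly be told apart by their reads.

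The genes for eEF1A, which brings tRNA to the ribosome, did not pass. TEF2 had 806 and 611 CPM in manganese-adapted cells and 572 and 636 CPM in control cells (0.22 ± 0.13; limma, adjusted p = 0.173). TEF1 had 310 and 233 CPM in manganese-adapted cells and 225 and 264 CPM in control cells (0.14 ± 0.13; limma, adjusted p = 0.363). In both genes the groups overlapped, and manganese-adapted replicate 1 was the highest sample. Without control replicate 2 both passed as higher, at 0.26 for TEF1 and 0.29 for TEF2, and TEF2 also passed without manganese-adapted replicate 2, at 0.42.

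Of the eIF5A genes, HYP2 was listed at 0 in all 4 samples, which allows up to 0.212 to 0.237 CPM by counting error alone. The table also holds a feature named YEL034C-A, whose systematic name places it on the opposite strand at the number of HYP2 (YEL034W) and which R64 does not annotate. It had 372 and 362 CPM in manganese-adapted cells, against 546 and 663 CPM in control cells (−0.71 ± 0.11; limma, adjusted p = 0.000195). Whether reads of HYP2 were assigned to that feature, or dropped because both overlap, was not tested, and no level or change of HYP2 can be read here. The numbers of PAB1, TIF6 and GCN20 are likewise shared by features that R64 does not annotate. Any effect of those features on the reads of PAB1, TIF6 and GCN20 was not tested. ANB1 had 6.42 and 7.58 CPM in manganese-adapted cells, against 4.74 and 5.33 CPM in control cells, the lowest of the tested factors. Its rise (0.40 ± 0.16; limma, adjusted p = 0.0449) was lost without each of the 4 samples in turn (0.30 to 0.51; adjusted p 0.0541 to 0.208) and did not pass on the recovered reads with edgeR or DESeq2. Of 9 other genes linked to hypoxia and the repressor Rox1, 3 rose (33.3%, beside 33.6% of all features) and 2 fell (22.2%, beside 34.9%). The share that rose was thus near that of all features. ROX1 itself had 171 and 163 CPM in manganese-adapted cells and 168 and 180 CPM in control cells. The cell-wall genes DAN1 and TIR1 rose by 3.03 and 2.15 on the log2 scale, and CYC7, a cytochrome c, fell by 1.12.

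Neither release factor passed. SUP35, which encodes eRF3, the protein behind the prion PSI+, had 288 and 254 CPM in manganese-adapted cells and 308 and 320 CPM in control cells (limma, adjusted p = 0.0608). SUP45, which encodes eRF1, had 160 and 164 CPM in manganese-adapted cells and 172 and 205 CPM in control cells (limma, adjusted p = 0.0763). Both genes lay lower in both manganese-adapted samples, at −0.21 each. Both passed as lower without control replicate 1 (adjusted p = 0.0356 for SUP35 and 0.00179 for SUP45) and with the length trend removed (−0.48 and −0.26).

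Genes that act beside the factors were counted in the same way. Of 15 further initiation helpers, 4 rose (26.7%, beside 33.6% of all features) and 5 fell (33.3%, beside 34.9%), shares near those of all features. The RNA helicase gene DED1, whose protein unwinds leaders during scanning, had 299 and 293 CPM in manganese-adapted cells, against 146 and 149 CPM in control cells (1.00 ± 0.08, SE). Its paralog DBP1 had 229 and 220 CPM in manganese-adapted cells, against 89.3 and 79.0 CPM in control cells (1.41 ± 0.09, SE). DED1 and DBP1, among the 4 helpers that rose, thus differed in direction from the eIF4A genes and TIF11, which fell. That difference was not tested. STM1, which encodes a protein that clamps idle ribosomes, fell by 0.91 on the log2 scale.

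Of 17 genes for enzymes that modify the factors, 9 fell (52.9%, beside 34.9% of all features) and 2 rose (11.8%, beside 33.6%). TRM112, an activator of methyltransferases including the one that acts on eRF1, had 19.9 and 20.7 CPM in manganese-adapted cells, against 44.5 and 54.7 CPM in control cells. DYS1, which makes the first step of hypusine on eIF5A, had 61.5 and 61.7 CPM in manganese-adapted cells, against 107 and 140 CPM in control cells. EFM7, a methyltransferase of eEF1A, fell by 0.92 on the log2 scale. Of 15 genes for ribosome rescue, recycling and quality control, 9 fell (60%, beside 34.9% of all features) and 1 rose (6.67%, beside 33.6%). The falls were led by LSO2 (−1.05), RBG1 (−0.72) and RBG2 (−0.58). Of 7 chaperones that meet the nascent chain, 5 fell (71.4%, beside 34.9% of all features) and none rose, with a median of −0.68. EGD1 had 202 and 178 CPM in manganese-adapted cells, against 375 and 460 CPM in control cells. ZUO1 and EGD2 were at −0.99 and −0.80.

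Beside the 44 factors, with their median of −0.32, 16 of 20 cytosolic aminoacyl-tRNA synthetases fell (80%, beside 34.9% of all features). None rose, and the median of the synthetases was −0.49. They were led by TYS1 (−1.32), GUS1 (−1.26) and KRS1 (−0.90). Of 132 cytosolic ribosomal protein genes, 131 fell (99.2%, beside 34.9% of all features), with a median of −1.32. The 132 genes held 28232 and 27248 CPM in manganese-adapted cells, against 58473 and 75190 CPM in control cells. With the length trend removed, the ribosomal protein median was −0.83 and the factor median −0.44. The 45 factors summed to 9699 and 9170 CPM in manganese-adapted cells, against 11088 and 12592 CPM in control cells. Of the 18 mitochondrial translation factors, 4 were higher (22.2%, beside 33.6% of all features) and 8 lower (44.4%, beside 34.9%). Their median was −0.09. MEF2, a mitochondrial recycling factor, was at 0.97, RRF1, its partner, at −0.93 and CBS2, an activator of cytochrome b translation, at −0.76.

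**Figure D4:**
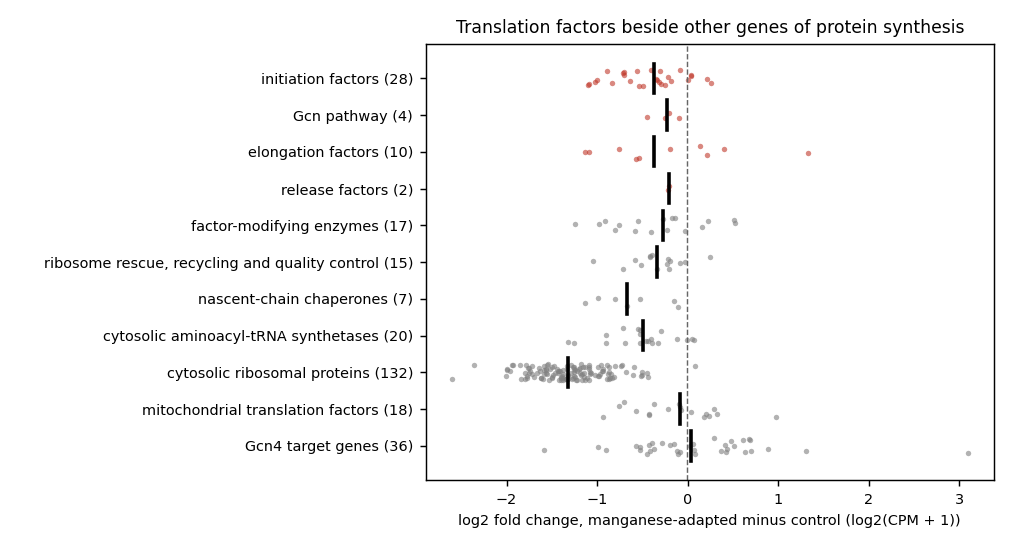
Log2 fold change, manganese-adapted minus control, of each tested gene in the translation factor groups (red) and in other gene lists of protein synthesis (grey), with the number of genes in brackets and the median as a black bar. The initiation and elongation factors have medians of −0.38 and −0.37, the ribosomal protein genes −1.32, and the Gcn4 target genes 0.04.

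The control samples themselves differed in these genes. Of the 44 factors, 43 were lower in control replicate 1 than in control replicate 2, with a median difference of −0.16 on the log2 scale, against −0.002 over all features. HEF3 was the exception, at 0.22. The ribosomal protein genes differed in the same direction, 130 of 132 being lower in control replicate 1, with a median of −0.38. The largest differences between controls among the factors were those of EFB1 (−0.48), TEF4 (−0.45), YEF3 (−0.43) and PRT1 (−0.35). Between the manganese-adapted samples the median difference was 0.02, and 19 of 44 factors were lower in replicate 1. Across the factors, the difference between the controls was related to the change (r = 0.66, rho = 0.55, n = 44 genes; r = 0.54 without HEF3). The genes share the same 4 libraries, and the control samples enter both measures. Without control replicate 2, 23 factors fell, and without control replicate 1, 30 fell.

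**Figure D5:**
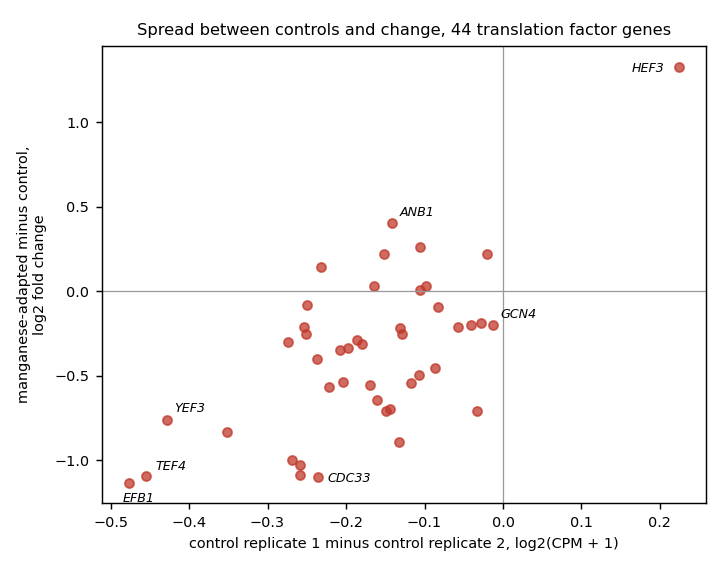
Difference between the control samples (replicate 1 minus replicate 2, horizontal axis) and log2 fold change, manganese-adapted minus control (vertical axis), both in log2(CPM + 1), for the 44 tested translation factor genes. All points but HEF3 lie left of 0, and EFB1, TEF4 and YEF3, which differ most between the controls, lie low.

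The 500 bases upstream of each start codon were searched on both strands for short motifs. AAATTTTC, the ribosomal RNA processing element (RRPE), was present in 18 of the 45 factors (40.0%), where 11.9% of all 6006 genes had it. Among factors that could be tested, 9 of the 18 with it fell and 2 rose, against 19 and 2 of the 26 without it. Windows of 40 bases around it are shown for the 4 factors with it that fell most, and for HEF3, which rose, with the motif in capitals in the strand of the gene (GAAAATTT is the same motif on the other strand). They lie in R64 at chrXV:61188-61227 (minus strand) and, on the plus strand, at chrXI:282471-282510, chrX:450874-450913, chrXII:636574-636613 and chrXIV:605929-605968.
CDC33: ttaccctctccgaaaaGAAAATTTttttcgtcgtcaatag
TEF4: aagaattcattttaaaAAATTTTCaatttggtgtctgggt
SUI2: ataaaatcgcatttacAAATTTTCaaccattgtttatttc
YEF3: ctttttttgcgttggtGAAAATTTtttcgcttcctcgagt
HEF3: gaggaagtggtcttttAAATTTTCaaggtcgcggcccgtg
The motif thus stood before both genes for eEF3, whose changes were opposite. GATGAG (the PAC element) was found in 16 factors (35.6%), where 28.2% of all genes had it, and ACCCNNACA, for Rap1, in 3, EAP1, TEF2 and TEF4, where 5.46% of all genes and 40.2% of the ribosomal protein genes had it. TGACTCA, for Gcn4, was found in SUP35 alone, 2.22% of the factors, where 4.01% of all genes had it. AGGGG, the stress response element, was found in 12 factors (26.7%), where 34.1% of all genes had it, and TTCNNGAA, a heat shock element, in 8 (17.8%), where 21.2% had it. ATTGTTCTC, for Rox1, was found upstream of PAB1 and, in 2 copies, of ANB1, where 1.13% of all genes had it. The stretch from 295 to 195 bases upstream of ANB1 (chrX:525576-525676, minus strand), with the Rox1 motifs in capitals, is shown because ANB1 is the copy of the eIF5A pair known for its use without oxygen.
ANB1: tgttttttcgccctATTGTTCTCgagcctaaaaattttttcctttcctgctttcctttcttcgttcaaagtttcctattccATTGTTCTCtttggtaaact

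The authors' deposited table also holds their own test of manganese-adapted against control cells. At an FDR of 0.05 the authors' deposited table called 27 of the 44 factors lower and 2 higher, and gave the same call as limma for 41. It differed for EAP1 (FDR 0.054), TIF6 (FDR 0.0613) and ANB1 (FDR 0.0586), each of which passed with limma and not in the authors' deposited table. Of the 32 factors called here, 19 kept their call under all 16 alternative settings. Those that fell were TIF1, TIF2, CDC33, CAF20, PRT1, TIF35, TIF11, SUI2, SUI3, GCD1, GCD7, GCN3, GCN20, TEF4, EFB1, EFT1, EFT2 and YEF3, and HEF3 rose.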

How the data were processed

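RNA of 4 yeast samples, 2 manganese-adapted and 2 control, grouped by the adaptation label, was sequenced from TruSeq libraries, per the labels. The build was sacCer3, and the tools included TopHat2 2.0.13, HTSeq, edgeR, Bowtie and cutadapt 1.8.1, per the submitters' processing notes. The sources used here do not give the counting mode or the use of strand. The authors deposited normalized CPM, together with a log2 fold change and a p-value and FDR from their own test. Every deposited CPM was a whole multiple of 1 read within 0.001 reads, so reads were recovered as an alternative; the deposited CPM carry the authors' scaling.

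The 6296 features with at least 1 CPM in at least 2 samples were tested with limma 3.58.1 (trend, R 4.3.3) on log2(CPM + 1), with 2 residual degrees of freedom and Benjamini-Hochberg adjustment at 0.05. Shares of paralog pairs were compared with exact permutation tests over samples. Alternatives were other pseudocounts and filters, edgeR 4.0.16 and DESeq2 1.42.0 on the recovered reads, other scalings, removal of each sample's trend with coding length or GC content (loess, span 0.5), a replicate block and leaving out each sample. The limma fit was also run on simulated reads in which only a small part of the genes changed. In these data 68.5% of all features tested were called, so that run does not show how the fit performs here. Positions, coding lengths, motifs and sequences are from RefSeq's R64, which 6047 of the 7126 features (84.9%) matched by name.

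The 45 members and all gene lists were chosen with earlier results of these data known. Named in full were members that changed at least 1.5-fold past the threshold, members of paralog pairs, GCN4 and members against the direction of their role group; from the other lists, at most the 3 largest changes past the threshold.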

Additional observations from a re-analysis of the deposited data

How the results depend on the processing

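The count of factors that fell stayed within 1.5 times of 28 under all alternatives run (20 to 32). The 14 changes of at least 1.5-fold kept their direction and, except SUI1 without the length trend, their call. The count that rose, 4, was 2 with DESeq2, without the GC trend, without the coding length trend and with a replicate block; leaving out a sample gave 1 to 5. Leaving out a sample gave 21 to 31 changed factors in all, against 32, with 21 when manganese-adapted replicate 1 was left out. With the replicate block 28 factors changed, 26 of them lower, and 4196 features in all. Whether equally numbered samples were handled as pairs cannot be told from these values. Their deviations from the group means had a correlation of −0.179 across genes, which with 2 samples a group does not decide it. With the crossed block, chosen after seeing the data, 34 factors changed, 4 higher and 30 lower, and 4426 features. ANB1 has no value under the filter of 10 CPM. The share of EFT2, −0.36 percentage points, ranged from −1.90 to 1.18 without each sample, being 0.507 without control replicate 2 and 1.18 without manganese-adapted replicate 1.

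Small log2 changes turned sign under some settings, and the cause was not tested. With the length trend removed these were TIF4632 (−0.0439), PAB1 (−0.202), EAP1 (−0.033), FUN12 (−0.277), TIF6 (0.0158) and GCD6 (−0.247). Removal of the GC trend gave PAB1 −0.0181 and FUN12 −0.00231. Over the fits that each left out a sample, TIF4631 ranged from −0.205 to 0.045, PAB1 from −0.0456 to 0.0606, FUN12 from −0.0162 to 0.0818, GCD6 from −0.0496 to 0.115 and TEF1 from −0.0667 to 0.347. When leaving out a sample left 1 in a group, its spread was taken from the other group. Depth limits ANB1, with 67 to 96 reads per sample, most among the factors tested.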
